A study of Homo sapiens with 9 samples.

Results

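BNIP3, its paralogue BNIP3L and 8 of their partners in mitophagy and autophagy (FUNDC1, PINK1, ULK1, BECN1, SQSTM1, OPTN, GABARAPL1 and MAP1LC3B) were examined in a cancer cell line kept under low oxygen, after knockdown of GATA3 or of HIF1A. The 10 genes were chosen by name, with earlier results of these data known, so counts set beside all genes are only a description. All probes whose accession matched 1 of these symbols in RefSeq were taken, whatever their values. This gave 13 probes, and the 10 genes are part of 22439 symbols matched on the array. BNIP3L, GABARAPL1 and MAP1LC3B had 2 probes each. The cells were OEC-M1, a line from an oral squamous cell carcinoma, and RNA was measured on 9 Agilent arrays with 1 dye. There were 3 groups of 3 arrays: a control siRNA (siControl), an siRNA against GATA3 (siGATA3) and an siRNA against HIF1A (siHIF1A). All groups shared 1% O2 for 18 h and a measurement 72 h after transfection, so no array shows these genes at normal oxygen. The study asked which transcripts depend on each factor in hypoxic cells. Its methods name 1 siRNA per target for the arrays, and only 1 cell line was used. The numbers 1 to 3 in the labels were read as replicates, and nothing says that they came from separate cultures, so P values measure only the spread between these arrays.

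Mitophagy is the removal of mitochondria by autophagy. BNIP3, BNIP3L (also called NIX) and FUNDC1 sit in the outer mitochondrial membrane and hold a short motif that binds ATG8 proteins such as LC3, which tie the mitochondrion to the growing autophagosome, and BNIP3 and BNIP3L are textbook targets of HIF-1 under low oxygen. PINK1 is a kinase that marks damaged mitochondria, ULK1 and Beclin 1 (BECN1) start the autophagosome, and p62 (SQSTM1) and optineurin (OPTN) link ubiquitin-tagged cargo to ATG8 proteins.

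HIF-1, the dimer of HIF-1α and ARNT, binds DNA at the letters ACGTG or GCGTG, and these were searched on both strands of the 250 bases before each RefSeq start site in GRCh38.p14. Of 35116 promoters of that length, 43.2% held at least 1 match. BNIP3 is shown because it held 6 matches, a number reached by 0.646% of all promoters. The capitals mark the matches and the sequence runs 5′ to 3′ on the strand of the gene, the minus strand.

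BNIP3 promoter, GRCh38.p14, chr10:131981924-131982173, minus strand: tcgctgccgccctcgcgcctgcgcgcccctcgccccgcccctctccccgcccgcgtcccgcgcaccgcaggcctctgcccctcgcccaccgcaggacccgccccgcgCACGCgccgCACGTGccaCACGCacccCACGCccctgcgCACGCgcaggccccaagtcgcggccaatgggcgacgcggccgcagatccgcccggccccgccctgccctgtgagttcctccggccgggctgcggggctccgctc

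In this stretch 5 of the matches lay on the other strand of the gene and 1 on its own strand, and the match on its own strand overlapped another within the palindrome CACGTG. All lay between positions -143 and -100 from the start site. MAP1LC3B held 4 matches and ULK1 held 1. No match was found for FUNDC1, BECN1, OPTN (2 start sites), GABARAPL1 or SQSTM1 (3 start sites). Thus 3 of 8 genes with a promoter in the table (37.5%) held a match, counted over 11 promoters of these genes. The share of 43.2% counts single promoters and not genes, so the shares are not of the same unit. BNIP3L and PINK1 were not in the promoter table. The GATA motif, searched on both strands as AGATAA or with a last letter of G as AGATAG, and with a first letter of T in place of A as TGATAA or, ending in G, as TGATAG, was held by 22.3% of all promoters and by 0 of these 8 genes. A match is only a run of letters, and its absence from this window says nothing of the factor.

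The median spot intensity of the arrays ranged from 992.5 to 3560, and between 74.3% and 88.5% of spots were well above background. The dimmest array, at 992.5, was siControl replicate 3. Groups were compared with limma across all genes. A gene passed, and was counted as changed, at a two-sided unadjusted P of 0.05, the threshold of the study's methods, and adjusted P values are Benjamini-Hochberg values over all genes tested. GATA3 was 2.40-fold lower in siGATA3 than in siControl (log2 -1.26, SE 0.34, adjusted P = 1.00, limma), with log2 intensity of 10.71, 11.12 and 11.48 on the siControl arrays, 9.65, 9.48 and 10.40 on the siGATA3 arrays and 10.29, 11.11 and 10.78 on the siHIF1A arrays. HIF1A was 4.97-fold lower in siHIF1A (log2 -2.31, SE 0.35, adjusted P = 0.299, limma), with 16.74, 16.23 and 17.18 in siControl, 17.03, 16.03 and 16.99 in siGATA3 and 14.50, 14.13 and 14.58 in siHIF1A. Both targets were thus lower on every array of their own knockdown than on every siControl array. HIF1A mRNA differed by -0.036 in siGATA3 and GATA3 by -0.37 in siHIF1A, and neither passed. Of 12 epithelial and keratinocyte markers, 10 were well above background on all 9 arrays and KRT5 on none. Markers of other cell types did not separate from these, since 2 of 4 fibroblast, 3 of 3 endothelial and 2 of 2 leukocyte markers were also well above background on all 9 arrays. KRT6A, KRT8, KRT18 and DCN were lower in siGATA3 than in siHIF1A, and DCN was lower in siGATA3 than in siControl, at an unadjusted P of 0.05, and their part in the results was not tested. Summed over each list, the log2 level on the arrays of siControl, siGATA3 and siHIF1A ranged from 19.39 to 20.16, 18.80 to 19.79 and 19.53 to 20.13 for the epithelial markers, and the groups likewise overlapped for the endothelial markers (12.33 to 14.06, 12.77 to 13.84 and 13.79 to 14.20) and the 3 fibroblast markers measured throughout (15.43 to 16.63, 15.86 to 16.62 and 16.19 to 16.57). For the 2 leukocyte markers, siHIF1A (16.63 to 16.69) lay above siGATA3 (15.84 to 16.57), and siControl spread from 15.30 to 16.65. In cultures measured in bulk, less RNA per cell and fewer cells with the RNA cannot be told apart.

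Levels are log2 intensity after background correction and quantile normalization, and every member probe was well above background on all 9 arrays. In siHIF1A against siControl, 3 of the 10 genes passed, all lower (BNIP3, BNIP3L and ULK1), where 5.22% of all genes tested passed. In siGATA3 against siControl, 2 of 10 passed, both lower (ULK1 and OPTN), where 2.94% of all genes passed. That count and its direction turned on siControl replicate 3, the dimmest array: without it neither of these passed, and 3 others passed and were higher (BNIP3L, BECN1 and MAP1LC3B), where 12.7% of all genes then passed. Without siGATA3 replicate 2 the only call was BECN1, higher, where 4.66% of all genes passed. Between the knockdowns, 4 of 10 were higher in siGATA3 than in siHIF1A (BNIP3, BNIP3L, BECN1 and MAP1LC3B), where 12.0% of all genes passed. No member passed after adjustment over all genes in any comparison. Hardly any gene did: 0 of 47720 in siGATA3, 0 of 47368 in siHIF1A and 2 of 47356 between the knockdowns. The median log2 fold change of the 10 genes was -0.48 in siHIF1A, 0.067 in siGATA3 and 0.45 between the knockdowns, beside -0.0099, -0.016 and 0.00085 over all genes. In siHIF1A, all 10 fold changes lay below 0, as did 50.9% of those of all genes. Without siControl replicate 3 the median was -0.33 in siHIF1A and 0.29 in siGATA3, and only 8 of the 10 siHIF1A values lay below 0, since PINK1 became 0.25 and SQSTM1 0.12. Leaving out the other arrays in turn moved the siGATA3 median between -0.15 and 0.20, and without siHIF1A replicate 1 PINK1 was again above 0 in siHIF1A. Between the knockdowns the median fell to 0.27 without siGATA3 replicate 3 and 0.25 without siHIF1A replicate 1, and 2 members then passed (BNIP3 and BNIP3L). The share of all genes that passed in these fits is not given here.

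**Figure D1:**
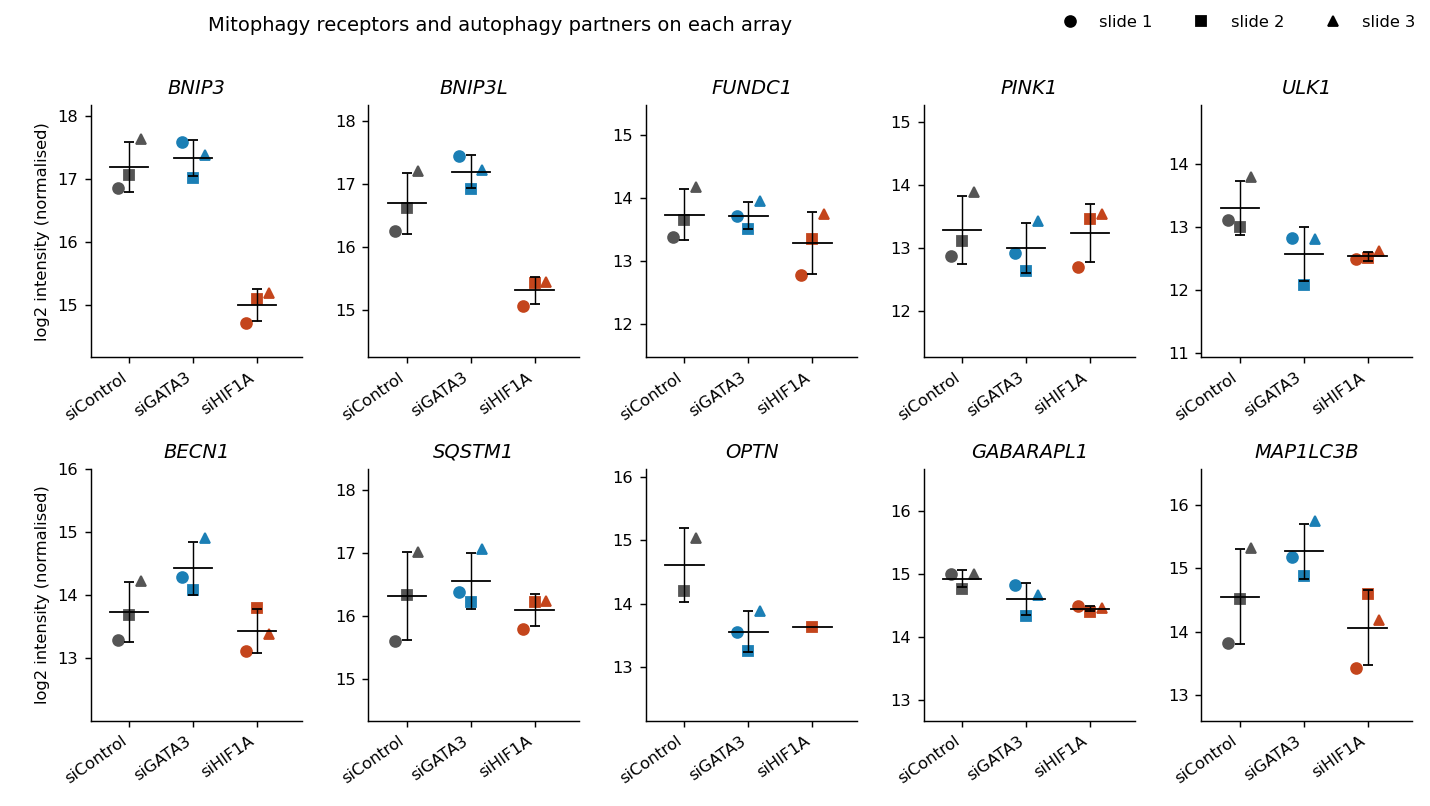
Normalised log2 intensity of the probe that stands for each of the 10 genes on every array, by group, with 1 panel per gene; circles, squares and triangles are slides 1, 2 and 3, the line is the mean and the bars are 1 SD, with no bar where 1 array was left. Each panel spans 4 log2 units, and its axis does not start at 0. BNIP3 and BNIP3L on the 3 siHIF1A arrays lie below all other arrays, at 14.71 to 15.18 and 15.07 to 15.45.

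The 3 arrays with the same number shared a slide, so differences could also be taken within each slide. Position on the slide followed the group and cannot be told apart from it. Among the 9 genes measured on all 3 siControl arrays, replicate 3 held the highest value for all 9. Before normalization, the same dim array held the highest spot intensity for 0 of the 10 genes and the lowest for 6. Calls, signs and counts that changed without it are therefore given without it as well. In siGATA3, replicate 2 held the lowest value for all 10 genes.

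Of the 10 genes, BNIP3 showed the widest separation between groups. Its log2 intensity was 16.86, 17.06 and 17.63 on siControl replicates 1 to 3, 17.58, 17.02 and 17.38 on the siGATA3 arrays and 14.71, 15.10 and 15.18 on the siHIF1A arrays. The siHIF1A arrays lay below all others with no overlap, whereas siGATA3 and siControl overlapped. BNIP3 was 4.55-fold lower in siHIF1A than in siControl (log2 -2.19, SE 0.28, adjusted P = 0.215, limma), and by P it ranked 3 of 47368 genes. Within slides 1 to 3 the difference was -2.15, -1.96 and -2.45. The change in siGATA3 was 0.15 with a 95% confidence interval of -0.48 to 0.77, and did not pass. Its sign also differed between slides, at 0.73, -0.041 and -0.25. Before normalization, the BNIP3 spot read 150054 to 165591 on the siControl and siGATA3 arrays, whose median spot intensity ranged from 992.5 to 2807.5. On the siHIF1A arrays the spot read 33618 to 45704. The scanner software marked no spot as saturated. Whether the brightest spots lay near the top of the scanner range, which would limit the size of these differences, was not tested. In the direct comparison BNIP3 was 5.04-fold higher in siGATA3 than in siHIF1A (log2 2.33, SE 0.28, adjusted P = 0.0928, limma) and ranked 4 of 47356 genes. Leaving out each array in turn gave -2.35 to -1.96 for siHIF1A and 2.19 to 2.49 between the knockdowns, and the call held in all 9 fits of each.

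BNIP3L, the paralogue of BNIP3, was also lower in siHIF1A. The brighter of its probes read 16.26, 16.63 and 17.21 in siControl, 17.45, 16.93 and 17.23 in siGATA3 and 15.07, 15.43 and 15.45 in siHIF1A. Again the siHIF1A arrays lay below all others, and siGATA3 overlapped siControl. BNIP3L was 2.60-fold lower in siHIF1A than in siControl (log2 -1.38, SE 0.29, adjusted P = 0.491, limma), with -1.19, -1.20 and -1.75 within slides. It was 3.68-fold higher in siGATA3 than in siHIF1A (log2 1.88, SE 0.29, adjusted P = 0.131, limma). Leaving out each array in turn gave -1.60 to -1.13 for siHIF1A and 1.76 to 2.02 between the knockdowns, all of which passed. The other probe read 16.16, 16.28 and 16.58 in siControl, 16.90, 16.26 and 16.64 in siGATA3 and 15.10, 15.05 and 15.16 in siHIF1A, and it passed in the same comparisons, at -1.24 and 1.50. In siGATA3 the brighter probe gave 0.50 (95% confidence interval -0.15 to 1.15) and the other probe 0.26, and neither passed. Without siControl replicate 3 the first of these became 0.75 and passed. Before normalization, the brighter probe read 141260 to 157108 on the siGATA3 arrays. Whether this lay near the top of the scanner range was not tested.

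FUNDC1, the mitophagy receptor of a different family, did not pass in any comparison. It read 13.37, 13.65 and 14.16 in siControl, 13.71, 13.50 and 13.94 in siGATA3 and 12.77, 13.34 and 13.73 in siHIF1A. All 3 groups overlapped. The log2 difference was -0.45 in siHIF1A (95% confidence interval -1.15 to 0.25), -0.011 in siGATA3 (-0.71 to 0.69) and 0.43 between the knockdowns (-0.26 to 1.13). Within slides the siHIF1A arrays were lower each time, with differences of -0.60, -0.31 and -0.43. Leaving out siControl replicate 3 gave -0.23 in siHIF1A and 0.21 in siGATA3.

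PINK1, the kinase of the damage-sensing route, likewise passed nowhere. Its values were 12.87, 13.11 and 13.89 in siControl, 12.93, 12.65 and 13.43 in siGATA3 and 12.71, 13.46 and 13.54 in siHIF1A. The groups overlapped throughout. The interval of the difference ran from -0.85 to 0.74 around -0.056 in siHIF1A, from -1.08 to 0.50 around -0.29 in siGATA3 and from -1.03 to 0.56 around -0.24 between the knockdowns. These intervals hold changes in either direction. The siHIF1A difference became 0.25 and the siGATA3 difference 0.0095 without siControl replicate 3.

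ULK1, the kinase that opens autophagy, passed in each of the comparisons with siControl, which use the same siControl arrays. Its siControl values were 13.11, 13.00 and 13.79, against 12.83, 12.07 and 12.81 in siGATA3 and 12.48, 12.51 and 12.61 in siHIF1A. Every knockdown array lay below every siControl array, and the knockdowns overlapped each other. ULK1 was 1.66-fold lower in siGATA3 (log2 -0.73, SE 0.30, adjusted P = 1.00, limma) and 1.70-fold lower in siHIF1A (log2 -0.76, SE 0.30, adjusted P = 0.823, limma). The knockdowns differed from each other by 0.033 (95% confidence interval -0.63 to 0.70) and did not pass. Without siControl replicate 3 both values shrank, to -0.49 in siGATA3 and -0.52 in siHIF1A, and neither passed. The call was also lost without siGATA3 replicate 2 (-0.48), and in siHIF1A without replicate 1 (-0.74), 2 (-0.75) or 3 (-0.80) of its own arrays.

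BECN1, the Beclin 1 subunit of the lipid kinase complex that ULK1 acts on, passed only between the knockdowns. It read 13.30, 13.69 and 14.23 in siControl, 14.30, 14.08 and 14.90 in siGATA3 and 13.11, 13.81 and 13.38 in siHIF1A. The siGATA3 arrays lay above all siHIF1A arrays, and siControl overlapped both groups. Neither difference from siControl passed, at 0.69 in siGATA3 (95% confidence interval -0.046 to 1.42) and -0.30 in siHIF1A (-1.04 to 0.43). With the slide as a block the siGATA3 difference of 0.69 passed. It also passed without siControl replicate 3 (0.94) and without siGATA3 replicate 2 (0.86). The siHIF1A difference shrank to -0.058 without siControl replicate 3. BECN1 was 1.99-fold higher in siGATA3 than in siHIF1A (log2 0.99, SE 0.33, adjusted P = 0.369, limma), with 1.18, 0.28 and 1.52 within slides. That call was lost without siGATA3 replicate 3 (0.76) or siHIF1A replicate 1 (0.83).

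SQSTM1, which encodes the cargo receptor p62, varied more between siControl arrays than between groups. The siControl values spread from 15.60 through 16.34 to 17.01, the siGATA3 values were 16.38, 16.22 and 17.07 and the siHIF1A values 15.80, 16.23 and 16.24. No comparison passed, at 0.24 in siGATA3 (95% confidence interval -0.60 to 1.08), -0.23 in siHIF1A (-1.07 to 0.61) and 0.47 between the knockdowns (-0.37 to 1.30). Its differences from siControl became 0.58 and 0.12 without siControl replicate 3, the highest array of that group.

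OPTN, which encodes optineurin, had 3 spots left out because the scanner software marked them as non-uniform. The remaining values were 14.20 and 15.03 on siControl replicates 2 and 3, 13.55, 13.24 and 13.88 on the siGATA3 arrays and 13.63 on siHIF1A replicate 2. All knockdown values left lay below both siControl values. OPTN was 2.09-fold lower in siGATA3 (log2 -1.06, SE 0.37, adjusted P = 1.00, limma). With the marked spots kept, siControl replicate 1 read 13.49, inside the siGATA3 range, and the difference was -0.69 and no longer passed. Nor did it pass without siControl replicate 3 (-0.65, with 1 siControl array left), siGATA3 replicate 1 (-1.06) or siGATA3 replicate 2 (-0.91). In siHIF1A, where the fit took the spread of the lone array from the other groups, the difference was -0.99 (95% confidence interval -2.15 to 0.18) and did not pass. It was -0.57 without siControl replicate 3 and -1.40 without siControl replicate 2. Each of these sets 1 siHIF1A array against 1 siControl array, with the spread taken from siGATA3 and moderated by limma over all genes. The call of the second is therefore not read as a result. Between the knockdowns it was -0.076 (-1.18 to 1.02).

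GABARAPL1, an ATG8 protein of the GABARAP branch, read 14.99, 14.76 and 15.00 in siControl, 14.81, 14.32 and 14.66 in siGATA3 and 14.49, 14.40 and 14.45 in siHIF1A on its brighter probe. All siHIF1A arrays lay below all siControl arrays, and siGATA3 overlapped both. The difference in siHIF1A was -0.47 (95% confidence interval -0.97 to 0.025) and did not pass, with -0.50, -0.36 and -0.55 within slides. The other probe read 11.97, 12.12 and 13.09 in siControl, 12.66, 11.49 and 12.68 in siGATA3 and 11.17, 11.47 and 11.65 in siHIF1A. On that probe the fall in siHIF1A passed (log2 -0.96, SE 0.40, adjusted P = 0.829, limma over all probes). The probes thus gave the same sign and differed in the call. In siGATA3 neither passed, at -0.32 and -0.11, nor did either between the knockdowns, at 0.15 and 0.85.

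MAP1LC3B, which encodes the LC3 protein that coats the autophagosome, read 13.81, 14.52 and 15.33 in siControl, 15.18, 14.89 and 15.75 in siGATA3 and 13.42, 14.60 and 14.18 in siHIF1A on its brighter probe. As for BECN1, the siGATA3 arrays lay above all siHIF1A arrays and siControl overlapped both. It was 2.31-fold higher in siGATA3 than in siHIF1A (log2 1.21, SE 0.44, adjusted P = 0.385, limma), and within slides the difference was 1.77, 0.29 and 1.57. Against siControl it differed by 0.72 in siGATA3 (95% confidence interval -0.25 to 1.69) and by -0.49 in siHIF1A (-1.46 to 0.48), and neither passed. Without siControl replicate 3 the former became 1.105 and passed, and the latter shrank to -0.10. The other probe read 11.89, 12.20 and 12.85 in siControl, 12.82, 12.62 and 13.02 in siGATA3 and 11.68, 12.35 and 12.08 in siHIF1A, and passed between the knockdowns at 0.79. MAP1LC3B2 encodes a near-identical protein, and whether these probes also read its RNA was not tested. The direct call was lost without siGATA3 replicate 3 (0.97) or siHIF1A replicate 1 (0.89).

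**Figure D2:**
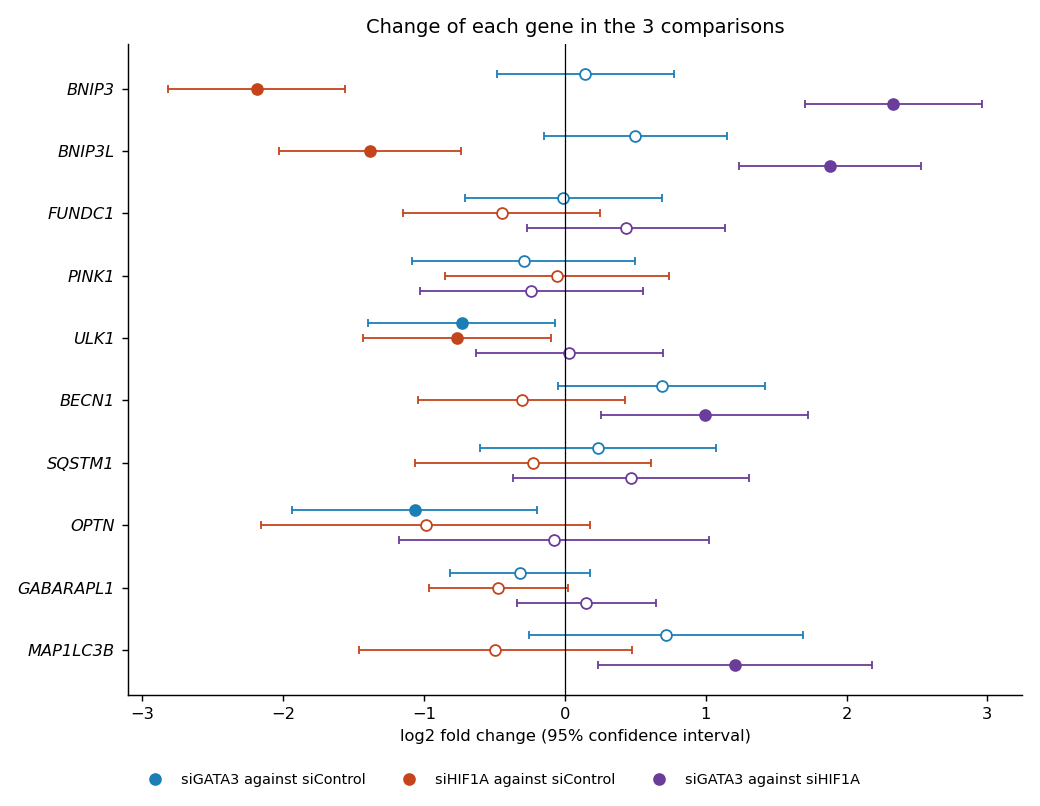
Log2 fold change of each gene in siGATA3 against siControl (blue), siHIF1A against siControl (red) and siGATA3 against siHIF1A (purple), with 95% confidence intervals from limma; filled points passed an unadjusted P of 0.05. BNIP3 and BNIP3L lie farthest from 0, at -2.19 and -1.38 in siHIF1A, and the intervals of FUNDC1, PINK1, SQSTM1 and GABARAPL1 cross 0 in all 3 comparisons.

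**Figure D3:**
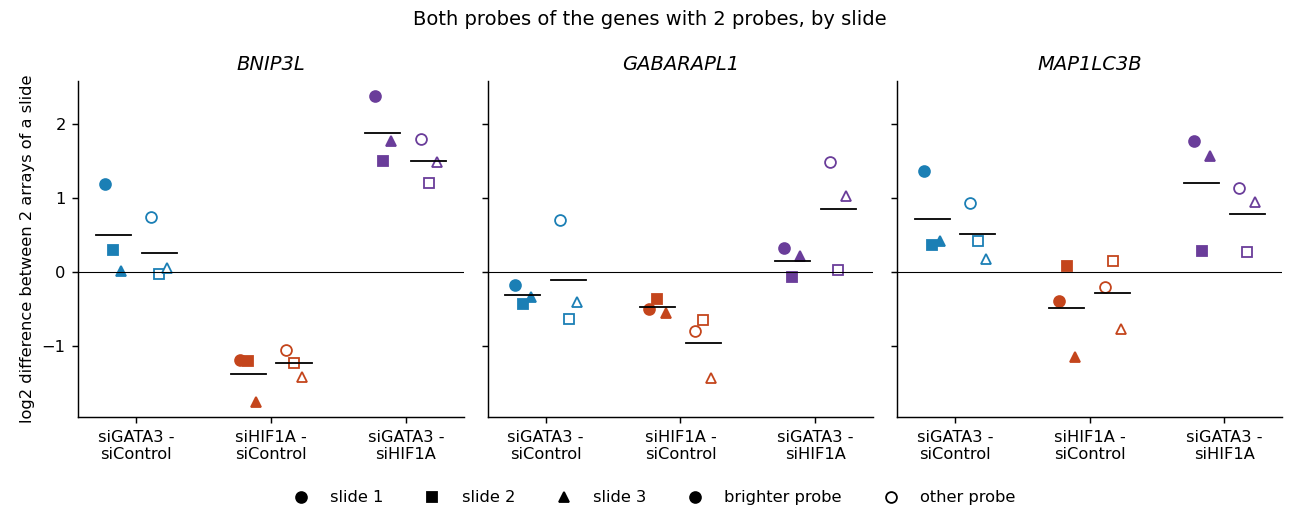
Log2 differences between arrays of the same slide for both probes of BNIP3L, GABARAPL1 and MAP1LC3B, in the 3 comparisons; filled symbols are the brighter probe, open symbols the other, shapes are slides 1 to 3 and lines are fitted differences. Both probes of BNIP3L are below 0 in siHIF1A on all 3 slides, whereas slide 2 gives the smallest difference between the knockdowns for both probes of MAP1LC3B, at 0.29 and 0.28.

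In order of mean level, siHIF1A was lowest for 8 of the 10 genes, and siGATA3 was lowest for PINK1 and OPTN. The same share over all genes was not counted. ULK1 was placed by a difference of 0.033 between the knockdowns, which was -0.020 with non-uniform spots kept. OPTN in siHIF1A was 1 array, and with those spots kept siGATA3 lay above siHIF1A by 0.18. Without siControl replicate 3, both knockdowns lay above siControl for PINK1 (0.25 in siHIF1A and 0.0095 in siGATA3) and SQSTM1 (0.12 and 0.58). For BNIP3 and BNIP3L the step from siHIF1A to siControl exceeded the spread and the step from siControl to siGATA3 did not. For ULK1 the knockdowns were neighbours that did not differ beyond their spread, and siControl stood above both. For BECN1 and MAP1LC3B the order was siHIF1A, siControl and siGATA3, and only the outer groups differed by the test.

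Over the 9 arrays, the 5 genes whose log2 intensity followed that of BNIP3 most closely were LEISA1 (Pearson r 0.993), ZNF511 (0.992), PLXNB3 (0.991), ANKZF1 (0.985) and INSIG2 (0.984), among 15913 genes with a symbol, well above background on all 9 arrays. The 9 points share the 3 groups and the 3 slides. BNIP3 varied mostly through its fall on the siHIF1A arrays, so genes picked this way fall there through the choice itself. The log2 changes of the 5 genes in siHIF1A, which are no separate result, ran from -2.06 for PLXNB3, a semaphorin receptor, to -1.52 for LEISA1. INSIG2, which restrains sterol synthesis, differed by -1.91. BNIP3L came 12 (r 0.975). The other members were less alike, from MAP1LC3B (0.714) down to ULK1 (0.492) and PINK1 (0.0756), and OPTN was not ranked because of its missing values.

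Of a wider list of 73 genes of autophagy and mitophagy, 72 were on the array, and MAP1LC3B2 was not matched. This list was likewise chosen with earlier results of these data known. In siHIF1A against siControl, 8 of 71 tested genes passed, 5 lower and 3 higher, which is 11.3% beside 5.22% of all genes, and the median was -0.19. The 6 largest of these changes were in TAX1BP1 (-1.03), a cargo receptor, ATG14 (-0.995) and PIK3C3 (-0.77), subunits of the Beclin 1 complex, LAMP1 (-0.94), a lysosomal membrane protein, MIEF2 (-0.69), which recruits the fission machinery to mitochondria, and ATG5 (0.68), a part of the enzyme complex that lipidates LC3 and measured on 2 siControl arrays. All 7 genes of the class III PI3-kinase complex had values below 0, beside 50.9% of all genes, with a median of -0.68, and 2 of them passed (PIK3C3 and ATG14). Without siControl replicate 3, 5 of the 7 lay below 0, the median was -0.48 and PIK3C3 alone passed, and without siHIF1A replicate 1, 6 of the 7 lay below 0. Other roles differed. Of the 10 conjugation enzymes, 7 lay above 0, with a median of 0.20, and ATG4B and ATG5 passed as higher. The median of the ULK complex was -0.035. All 8 genes of mitochondrial fission and fusion lay below 0 (median -0.37), but only 4 without siControl replicate 3. In siGATA3 against siControl, 3 of 72 passed (4.17% beside 2.94%): ATG10 (1.13), an enzyme that joins ATG12 to ATG5, and FIS1 (0.85), a fission adaptor measured on 2 siControl arrays, were higher, and ATG9A (-0.57), a membrane carrier of the early autophagosome, was lower.

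Between the knockdowns, 13 of 71 genes of the wider list passed, 12 higher in siGATA3 and 1 lower, which is 18.3% beside 12.0% of all genes. The largest were ATG10 (1.63), FIS1 (1.25), TBK1 (1.24), the kinase that activates OPTN and SQSTM1, NRBF2 (1.15), a subunit of the Beclin 1 complex, LAMP1 (1.09) and ATG4A (-1.64), a protease that trims ATG8 proteins and was measured on 2 siGATA3 arrays. Among the 8 genes of mitochondrial fission and fusion, all differences were above 0, where 49.9% of all genes lay below 0, 3 passed and the median was 0.72. All 8 stayed above 0 with any 1 array left out, and between 1 and 6 of them then passed. These counts moved with single arrays. For siGATA3 the count of 3 became 1 without siControl replicate 2, 15 without siControl replicate 3, and 1, 6 and 0 without siGATA3 replicates 1, 2 and 3. The share of all genes that passed in these fits was 1.98%, 12.7%, 3.01%, 4.66% and 2.22%, in the same order. For siHIF1A the count of 8 became 16 without siControl replicate 1, 3 without siControl replicate 3, and 3, 3 and 4 without siHIF1A replicates 1, 2 and 3. Beside these, 10.2%, 3.5%, 2.97%, 4.99% and 3.24% of all genes passed. Between the knockdowns the count of 13 became 24 without siControl replicate 3, 7, 25 and 5 without siGATA3 replicates 1, 2 and 3, 6 without siHIF1A replicate 1 and 8 without siHIF1A replicate 3, and 23 with the slide as a block. The share of all genes moved as well, to 20% without siControl replicate 3. For the other fits between the knockdowns that share is not given here. Whether the list moved apart from all genes cannot be read from those counts.

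**Figure D4:**
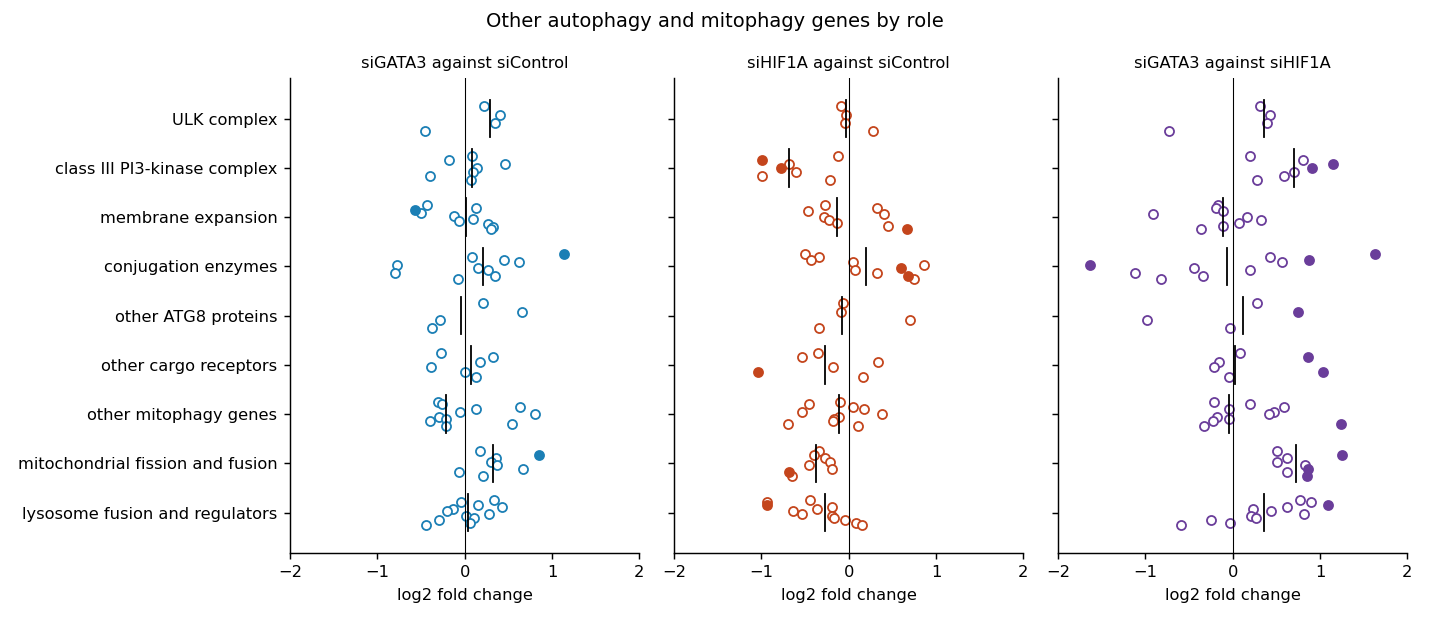
Log2 fold change of each tested gene of the wider autophagy list by role, in 1 panel per comparison; filled points are genes counted as changed and black lines are the median of a role. In siHIF1A the median is -0.68 for the class III PI3-kinase complex and 0.20 for the conjugation enzymes, and the 8 genes of mitochondrial fission and fusion are all above 0 between the knockdowns.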

How the data were processed

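RNA of OEC-M1 cells was measured on 9 Agilent 1-dye arrays. The authors deposited scanner files made with Feature Extraction 10.5.1.1, which hold spot and local background intensity on a linear scale, not normalized between arrays. They also deposited a log2 table. In it, all values of probes with 1 spot lay within 0.001 of log2 processed intensity once a constant for each array was taken off. Using R 4.3.3 and limma 3.58.1, median spot intensity was background corrected (normexp, offset 50), since the files hold no mean; non-uniform spots were set to missing and arrays quantile normalized. Spots of the same probe were averaged, controls dropped, and each gene was read from its brightest probe over the 9 arrays. Of 58201 probes, 31104 matched a RefSeq symbol. The 3 groups were fitted together (lmFit, eBayes), tested two-sided at an unadjusted P of 0.05 as in the study's methods, with Benjamini-Hochberg adjustment over all genes tested. The fit was tested on simulated data. No filter was applied to dim probes. The number of arrays limits the precision.

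Replicate numbers equalled slides. Deviations of same-numbered arrays from their group means correlated at 0.216 to 0.722 between siControl and siGATA3, 0.0657 to 0.607 between siControl and siHIF1A and -0.191 to 0.336 between the knockdowns. Alternatives changed the background correction, scaling, filter, outlier spots, probe rule, block, samples, variance model, call and arrays. All 10 members were named, up to 6 genes of the wider list per comparison that passed and that 1 group detected on all its arrays, and the 5 genes most like BNIP3. The members and lists were chosen with earlier results of these data known. Of the leukocyte markers, LYZ was not matched and a further one is not reported here.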

Additional observations from a re-analysis of the deposited data

Results flagged for a closer look

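The direct comparison of the knockdowns tests whether a gene answered differently to them, and 4 of the 10 members passed it at an unadjusted P of 0.05 in limma. Of all genes tested, 12.0% passed it. On the log2 scale, siGATA3 minus siHIF1A, the difference was 2.33 for BNIP3, 1.88 for BNIP3L, 0.99 for BECN1 and 1.21 for MAP1LC3B. BECN1 and MAP1LC3B passed in neither comparison with siControl. Their calls between the knockdowns were lost without siGATA3 replicate 3 or siHIF1A replicate 1. The siRNA targets also differed, HIF1A by 2.28 and GATA3 by -0.89. The GATA3 difference no longer passed without siGATA3 replicate 1 (-0.79) or 2 (-0.71) or siHIF1A replicate 2 (-0.70) or 3 (-0.86). In the wider list the 6 largest differences were -1.64 for ATG4A, 1.63 for ATG10, 1.25 for FIS1, 1.24 for TBK1, 1.15 for NRBF2 and 1.09 for LAMP1. Each array was left out in turn, but with 3 arrays a group no array was tested as an outlier.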

How the results depend on the processing

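BNIP3 and BNIP3L kept their direction and their call in siHIF1A against siControl and between the knockdowns under every alternative except the adjusted P, which no member passed. At an adjusted P of 0.05 in limma, 0 members and 0 genes of the wider list passed in any comparison. Among all genes tested, 0 passed in siGATA3, 0 in siHIF1A and 2 in the direct comparison. At the unadjusted P, 2, 3 and 4 members passed in siGATA3, siHIF1A and the direct comparison. The targets did not pass the adjusted P either (GATA3 -1.26, adjusted P = 1.00, and HIF1A -2.31, adjusted P = 0.299). In siGATA3 the count of members was 1 with the authors' log2 table, with non-uniform spots kept and with separate fits of 6 arrays. Leaving out 1 array at a time gave 1 to 3 members in siGATA3, 2 to 4 in siHIF1A and 2 to 4 between the knockdowns, and 0 to 15, 3 to 16 and 5 to 25 genes of the wider list. The share of all genes that passed moved too, from 1.98% to 12.7% in siGATA3 and from 2.97% to 10.2% in siHIF1A. For the wider list, processed signal scaled to the 75th percentile gave 1, 4 and 8 genes, and the log2 table gave 5 in siHIF1A. Counting any probe of a gene gave 6 in siGATA3, and both the replicate block and separate fits gave 23 between the knockdowns. The share of all genes under these settings is not given here. Beside the calls given with the results, ULK1 in siGATA3 was lost in the separate fit of 6 arrays (-0.73), OPTN in siGATA3 was lost with the log2 table (-0.88), OPTN in siHIF1A passed there (-0.93), and GABARAPL1 in siHIF1A passed with the mean of its probes (-0.71). The replicate block changed no member call other than that of BECN1 in siGATA3 (0.69).

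Signs turned only where the difference was not called. With processed signal and with the log2 table, the siGATA3 difference was 0.083 and 0.066 for FUNDC1 and 0.14 and 0.12 for HIF1A, and with the log2 table OPTN differed by 0.055 between the knockdowns. With non-uniform spots kept, ULK1 gave -0.020 and OPTN 0.18 between the knockdowns. Leaving out 1 array at a time gave, in siGATA3, -0.016 to 0.37 for BNIP3, -0.19 to 0.21 for FUNDC1, -0.50 to 0.0095 for PINK1, -0.12 to 0.58 for SQSTM1 and -0.28 to 0.29 for HIF1A. In siHIF1A it gave -0.27 to 0.25 for PINK1 and -0.59 to 0.12 for SQSTM1, and between the knockdowns -0.095 to 0.28 for ULK1 and -0.24 to 0.081 for OPTN. In these ranges the sign turned without siControl replicate 1 (BNIP3, SQSTM1), siControl replicate 3 (FUNDC1, PINK1, SQSTM1, HIF1A), siGATA3 replicate 1 (ULK1), siGATA3 replicate 2 (FUNDC1, OPTN, HIF1A), siGATA3 replicate 3 (ULK1, SQSTM1) or siHIF1A replicate 1 (PINK1). Where not given, the cause was not tested. Every member probe was well above background on all 9 arrays, and whether the lower brightness of siControl replicate 3 had a part in these values was not tested.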
